A study of Mus musculus with 7 samples.

Results

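The genes described here are 42 synaptic and neural adhesion genes, chosen by listed gene symbol from the 56941 genes of each of the 4 deposited count matrices. They comprise 2 neurexins, 3 neuroligins, 4 LRRTM proteins, 1 calsyntenin, 4 teneurins, 3 latrophilins, 3 BAI receptors, 5 contactins, 5 contactin-associated proteins, 4 IgLON proteins, 2 NCAM proteins, 2 DSCAM proteins and 4 members of the L1 family. All 42 were found by symbol, and all 42 passed the filter on low counts in the tumor nuclei.

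Most of these proteins span the membrane of a neuron or are anchored on it, and they bind a partner on the neighboring cell. Neurexins of the presynaptic side bind neuroligins, LRRTM proteins and calsyntenins of the postsynaptic side, while teneurins bind latrophilins. Contactins act together with contactin-associated proteins, and IgLON, NCAM, DSCAM and L1 proteins are immunoglobulin-type adhesion molecules of growing axons. Small cell lung cancer is a neuroendocrine carcinoma, and NCAM is one of the markers used in its pathology.

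Transcripts of single nuclei were counted in fresh-frozen endpoint lung tumors of 4 male mice by split-pool barcoding (Parse Evercode). RP1 and RP2 carried Rb1 fl/fl and Trp53 fl/fl, and RPC1 and RPC2 carried in addition an allele written as Casp8-/- in the labels, which the methods of the study describe as conditional (floxed). All 4 animals inhaled as young adults an adenovirus that expresses Cre from the CMV promoter, which is active in any infected cell, so that no cell type of the lung was selected. The comparison of RPC with RP asks what goes with the loss of Casp8, which encodes caspase 8, a protease of death receptor signaling.

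Each of the 7 libraries pooled all 4 animals, so the animal was the replicate. The labels give 2 animals per genotype and no litter or batch, and the p-values measure only the spread between these animals. The matrices held 8413 to 10865 nuclei and 32299909 to 72446861 transcripts per animal, with more transcripts in both RPC animals, and no barcode was shared. Tumor-like nuclei, named from neuroendocrine markers, numbered 7121 and 7240 in the RP animals (RP1, RP2) and 9145 and 8667 in the RPC animals (RPC1, RPC2), which were 81.6 to 85.3% of the nuclei kept. All 14 neuroendocrine markers were detected there, with a summed level of 3902 to 4719 transcripts per 1e+06 (CPM). Over all kept nuclei, the ribosomal RNA Rn18s-rs5 took 9.99 and 8.49% of the transcripts of RP1 and RP2, against 3.09 and 5.35% of those of RPC1 and RPC2. Its part in the genotype differences was not tested. Casp8 was at 58.7 and 61.0 CPM in the RP animals and 88.8 and 66.2 CPM in the RPC animals, but counts over the whole gene do not resolve the deleted exons, so this value does not check the labels.

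Among the members whose genotypes did not overlap in tumor-like nuclei, Adgrb3 and Tenm2 had the largest differences, and Adgrb2 had the lowest adjusted p. The promoters of these 3 are shown here, from 250 bases before to 50 bases after the RefSeq start (build GRCm38.p6, 5′ to 3′ on the strand of the gene), with each CG dinucleotide in capitals. Each is the window that the table gives for the gene, and which start these nuclei used was not tested.

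Tenm2: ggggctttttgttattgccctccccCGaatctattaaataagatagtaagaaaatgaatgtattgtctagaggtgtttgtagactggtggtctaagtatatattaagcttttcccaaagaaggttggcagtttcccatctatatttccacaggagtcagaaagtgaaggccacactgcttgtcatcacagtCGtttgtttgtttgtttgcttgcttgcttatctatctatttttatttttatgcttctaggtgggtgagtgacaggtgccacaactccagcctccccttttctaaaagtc

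Adgrb3: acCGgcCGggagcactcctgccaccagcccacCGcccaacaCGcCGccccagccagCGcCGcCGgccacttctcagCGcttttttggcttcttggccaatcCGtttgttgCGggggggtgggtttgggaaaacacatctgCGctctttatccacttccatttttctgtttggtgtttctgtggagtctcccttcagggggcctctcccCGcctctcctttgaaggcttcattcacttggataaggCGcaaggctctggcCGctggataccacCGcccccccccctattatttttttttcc

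Adgrb2: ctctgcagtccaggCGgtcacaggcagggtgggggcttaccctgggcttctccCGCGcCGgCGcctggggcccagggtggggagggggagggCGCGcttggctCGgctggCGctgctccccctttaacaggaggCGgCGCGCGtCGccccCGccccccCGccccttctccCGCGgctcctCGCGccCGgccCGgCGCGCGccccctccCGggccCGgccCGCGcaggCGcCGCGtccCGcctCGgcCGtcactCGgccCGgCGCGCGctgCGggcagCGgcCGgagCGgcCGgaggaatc

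The window of Tenm2 is chr11:36944192-36944491 on the minus strand, that of Adgrb3 is chr1:25829658-25829957 on the minus strand, and that of Adgrb2 is chr4:129984620-129984919 on the plus strand. By the RefSeq annotation of the same build, the start in the Tenm2 window lies 293 kb inside the outermost 5′ end of the gene, so it is an internal start, while those of Adgrb3 and Adgrb2 lie 5.07 and 0.097 kb inside. The Tenm2 window held 2 CG and 40% G or C, the Adgrb3 window 16 CG and 59.0%, and the Adgrb2 window 45 CG and 81.7%. None of these 3 windows held CAGCTG, a sequence that E-box factors can bind, searched here as letters only. It is its own reverse complement, so a single search covers both strands. Over the 33 members that the table holds, 9 of 49 promoters had it (18.37%), beside 16.3% of all 32851 promoters of the same length. The median member promoter had 12 CG, beside 7 in all promoters.

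The members are long genes. By the GENCODE annotation of GRCm39, the build of the files, their spans ran from 6.06 to 2245 kb with a median of 419 kb, beside 28.7 kb for the 15541 protein-coding genes tested. 20 of the 42 were longer than 500 kb, beside 1.47% of those genes. Nuclear libraries count unspliced RNA, so a long gene can gather more counts. The median member had 174 CPM in tumor-like nuclei, beside 16.0 CPM for the protein-coding genes, but per kb of span it had 0.624 CPM, beside 0.712. Of the members, 23 exceeded 100 CPM in every animal, and Lrrtm1, Lrrtm2 and Lrrtm3 stayed below 5 CPM in all 4. These 3 genes each lie inside an α-catenin gene (Ctnna2, Ctnna1 and Ctnna3) on the opposite strand. The strand setting of the counting is not given in the sources used here, so their counts are uncertain.

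Summed over all 42 members, the level was 25091 and 20173 CPM in RP1 and RP2, against 14390 and 19339 CPM in RPC1 and RPC2. Tenm2 made up most of that difference. Without it the sums were 15423, 14357, 14253 and 15480 CPM (4 values in a row follow the order RP1, RP2, RPC1, RPC2), and the genotypes overlapped. Differences between animals of one genotype were common: the level differed by more than 1.5 times between RP1 and RP2 for 15 members and between RPC1 and RPC2 for 22.

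**Figure D1:**
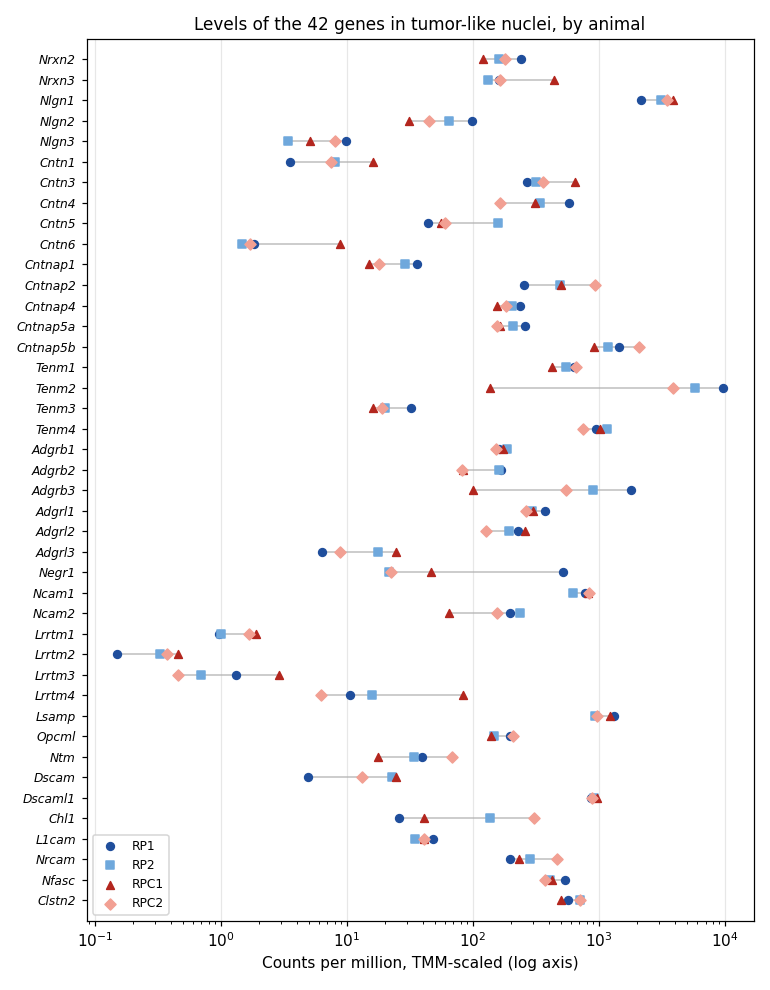
Level of each of the 42 members in tumor-like nuclei, in CPM with TMM scaling on a logarithmic axis, 1 point per animal, grouped by protein family. Tenm2 spans from 137 CPM in RPC1 to 9668 CPM in RP1, whereas Dscaml1 and Adgrb1 lie close together in all 4 animals.

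Between the genotypes, edgeR called none of the 42 members in tumor-like nuclei at an adjusted p under 0.05, and it called 0% of the 20087 genes tested. At an unadjusted p under 0.05 it had 5 members (11.9%), beside 15.2% of all genes: Nlgn2, Cntnap1, Cntnap5a and Adgrb2 were lower in RPC and Cntn3 was higher. DESeq2, the tool of the study, called 2 members (4.76%), Adgrb2 and Cntnap1, beside 3.94% of 16721 genes. Both shares are near the background. The fitted difference was higher in RPC for 19 members and lower for 23, with a median log2 fold change of -0.04, beside -0.01 over all genes. The 2 genotypes did not overlap for 17 members (7 higher and 10 lower in RPC), which is 40.5%, beside 50.4% of all genes tested (24.9% higher and 25.5% lower).

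Adgrb2 and Adgrb1 are receptors of the BAI family, adhesion receptors with a long extracellular part that act at synapses. Adgrb2 (ENSMUSG00000028782, chromosome 4, 129877901 to 129916437, plus strand, GRCm39) was at 168 and 160 CPM in RP1 and RP2, against 83.3 and 82.6 CPM in RPC1 and RPC2. Both RPC animals lay at about the same level, well below both RP animals. RPC differed from RP by a log2 fold change of -0.98 ± 0.13 (SE, n = 2 animals per genotype) with an edgeR adjusted p of 0.261 and a DESeq2 adjusted p of 0.00224. Leaving out any 1 animal kept the fold change between -1.02 and -0.94. The 124 genes within 5 Mb of Adgrb2 with a mean of 5 CPM had a median log2 fold change of -0.44, so its neighbors were lower in RPC too. Adgrb1 had 160, 186, 172 and 152 CPM, and its genotypes overlapped.

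Adgrb3 (ENSMUSG00000033569, chromosome 1, 25106526 to 25869270, minus strand), the third BAI receptor, was at 1784 and 899 CPM in RP1 and RP2, against 100.1 and 544 CPM in RPC1 and RPC2. The genotypes did not overlap, and RPC1 was 17.8 times below RP1. The log2 fold change was -2.06 ± 0.83, with an edgeR adjusted p of 0.332 and a DESeq2 adjusted p of 0.0630. The 10 neighbors within 5 Mb had a median log2 fold change of 0.12. The span of Adgrb3 meets that of another coding gene on the same strand, so some reads could belong to that gene. RPC2 was nearer to RP2 than to RPC1, so the size of the difference rested on RPC1: without it the log2 fold change was -1.29.

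Among the teneurins, large proteins that cross the membrane once and bind latrophilins, Tenm2 (ENSMUSG00000049336, chromosome 11, 35897483 to 37126791, minus strand) had the widest range of the 42. It was at 9668 and 5816 CPM in the RP animals (RP1, RP2) and 137 and 3858 CPM in the RPC animals (RPC1, RPC2), and it ranked 3 among all tested genes in RP1 and 1655 in RPC1. RPC2 stood much nearer to the RP animals than to RPC1. Its log2 fold change was -1.95 ± 1.36 with an edgeR adjusted p of 0.511, and without RPC1 it was -0.996. Leaving out RPC2 instead gave -5.80. The 25 neighbors within 5 Mb had a median log2 fold change of 0.11. For Tenm2 the 7 sublibraries within an animal agreed closely, from 9103 to 9638 CPM in RP1 and from 125.6 to 155.3 CPM in RPC1 (without TMM scaling).

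The latrophilins, the receptors of the teneurins, did not separate the genotypes. Adgrl1 had the highest level per kb of all members (7.31 CPM per kb) and was at 373 and 293 CPM in RP1 and RP2, against 301 and 262 CPM in RPC1 and RPC2. Adgrl2 was at 227, 194, 259 and 126 CPM in the same order, and Adgrl3 at 6.37, 17.8, 24.5 and 8.79 CPM. In all 3 the animals of one genotype spanned or overlapped the other. Tenm3 was at 32.4 and 20.2 CPM in the RP animals (RP1, RP2) and 16.1 and 19.0 CPM in the RPC animals (RPC1, RPC2). Tenm1 and Tenm4 stayed between 420 and 1153 CPM in every animal.

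The neurexins are presynaptic receptors, and their postsynaptic ligands differed among themselves. Nrxn3 (ENSMUSG00000066392) was at 161 and 132 CPM in RP1 and RP2, against 437 and 164 CPM in RPC1 and RPC2. Only RPC1 stood apart, and RPC2 lay just above RP1. Its log2 fold change was 1.04 ± 0.47 (edgeR adjusted p 0.364, DESeq2 adjusted p 0.214). Nrxn2 was at 240, 162, 120 and 181 CPM, so its genotypes overlapped.

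Nlgn1, the neuroligin of excitatory synapses, was the second most abundant member with 2139 and 3087 CPM in RP1 and RP2, against 3872 and 3457 CPM in RPC1 and RPC2. Both RPC animals were above both RP animals by less than 2 times (log2 fold change 0.49, edgeR adjusted p 0.404). Nlgn2, the neuroligin of inhibitory synapses, had the opposite order with 97.9, 64.0, 30.8 and 45.1 CPM. Its log2 fold change was -1.09 ± 0.29, with an edgeR adjusted p of 0.279 and a DESeq2 adjusted p of 0.0559. Nlgn2 is a short gene of 14.7 kb with 4.05 CPM per kb, and Nlgn1 covers 906 kb with 3.46 CPM per kb.

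Lrrtm4, a leucine-rich postsynaptic ligand of neurexins, was at 10.6 and 15.8 CPM in RP1 and RP2, against 82.7 and 6.25 CPM in RPC1 and RPC2. RPC1 was high and RPC2 was the lowest of the 4 animals. RPC against RP gave a log2 fold change of 1.75 ± 1.1 (edgeR adjusted p 0.474). Clstn2, a calsyntenin that also binds neurexins, had 564, 705, 500 and 711 CPM.

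Contactin-associated proteins place channels along axons together with contactins. Cntnap1 (ENSMUSG00000017167, chromosome 11, 101061349 to 101082747, plus strand) was at 36.3 and 28.9 CPM in the RP animals (RP1, RP2) and 14.95 and 18.1 CPM in the RPC animals (RPC1, RPC2). All RPC values were below all RP values. Its log2 fold change was -0.98 ± 0.21, with an edgeR adjusted p of 0.271 and a DESeq2 adjusted p of 0.0279. Its span meets those of Plekhh3, Ccr10 and Ezh1 on the opposite strand, so without a stated strand setting some reads could belong to these. Cntnap5b, the most abundant of the family, was at 1453, 1173, 906 and 2093 CPM, and the 2 RPC animals lay on either side of the RP animals. Cntn6, a contactin of the cerebellum, was at 1.83, 1.47, 8.87 and 1.70 CPM, which is 481 transcripts in RPC1 and 40 to 78 in the other animals. Over the 7 sublibraries of RPC1, Cntn6 ran from 2.94 to 22.47 CPM with a median of 6.47 (without TMM scaling). Its log2 fold change was 1.68 ± 0.80 (edgeR adjusted p 0.382).

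Negr1, an IgLON protein on the outer membrane of neurons, was at 521 and 21.6 CPM in RP1 and RP2, against 46.9 and 22.2 CPM in RPC1 and RPC2. Here a single RP animal was high, and the other RP animal was the lowest of the 4. The fitted log2 fold change was -2.97 ± 1.38 (edgeR adjusted p 0.374), and without RP1 it was 0.68. Negr1, Cntn6 and Lrrtm4 were the members whose highest animal was at least 4 times the second. They were 3 of the 39 members with 5 CPM in some animal (7.69%), beside 0.753% of the 12357 genes with 5 CPM. The highest animal was at least 4 times the lowest for 8 members (20.5%), beside 6.11%. The members were chosen with earlier results of these data known, so these shares are a description and no test.

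Ncam1, the NCAM used as a marker of neuroendocrine carcinoma, was at 769 and 624 CPM in the RP animals (RP1, RP2) and 813 and 837 CPM in the RPC animals (RPC1, RPC2). Dscaml1, a homophilic adhesion protein, had the narrowest range of all members with 863, 907, 966 and 880 CPM. Nfasc, the neurofascin of axon initial segments and nodes, had 539, 412, 422 and 376 CPM. These 3 are among the 10 members highest per kb, and without Tenm2 the log2 fold changes of those 10 ran from -1.09 to 0.49. The 22 members not singled out had means of 0.328 to 1109 CPM, log2 fold changes of -0.97 to 1.09 and edgeR adjusted p of 0.289 to 0.992. In 4 of them both RPC animals were higher, in 4 both were lower, and 14 overlapped. Dscam was at 4.90, 22.7, 24.7 and 13.2 CPM.

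**Figure D2:**
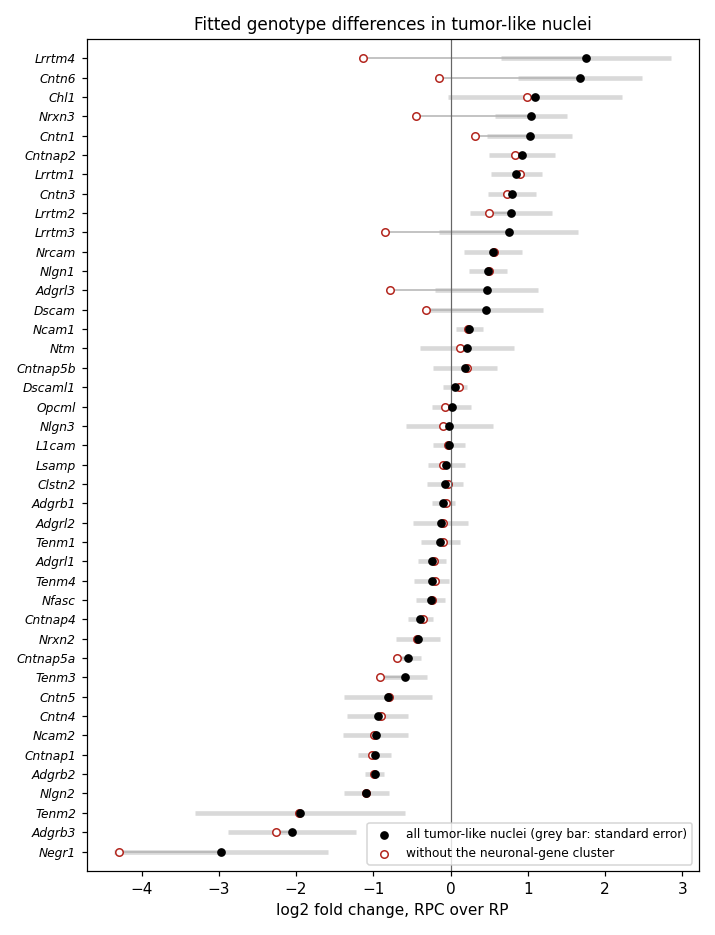
Log2 fold change of RPC against RP in tumor-like nuclei for each member (edgeR, bars are 1 SE, 2 animals per genotype), with all tumor-like nuclei and without the neuronal-gene cluster described in the text. The bars are widest for Negr1, Tenm2 and Chl1, and 7 members, Nrxn3, Cntn6 and Lrrtm4 among them, change sign between both sets.

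Part of the high values of RPC1 came from 1 cluster. Clustering was run with all 42 members left out of the variable genes, and 1 tumor-like cluster was led by Grik2, Lrrtm4, Erbb4, Nrxn3, Adarb2 and Gria4. It is called the neuronal-gene cluster here after these genes. It held 678 nuclei, of which 583 were from RPC1, where they were 6.375% of the tumor-like nuclei and 11.33% of their transcripts. The other animals gave 21, 38 and 36 nuclei. The RPC1 nuclei came from all 3 of its first-round wells (6.531, 6.146 and 6.433% of the tumor-like nuclei) and all 7 sublibraries. Their median depth was 4798 transcripts, beside 3304 in the other tumor-like nuclei of RPC1, and no doublet caller was run here.

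In RPC1, more than 50% of the tumor-like transcripts of 11 members (26.2%) were in these nuclei, beside 2.335% of the 18201 genes with at least 20 transcripts. As the cluster was found in the same nuclei, these counts are a description. For Lrrtm4 the share was 93.5% (95% exact binomial interval 92.7 to 94.2%), for Nrxn3 89.5%, for Negr1 88.4%, for Cntn6 87.9%, for Adgrb3 83.9% and for Adgrl3 81.0%. Lrrtm3, Dscam, Chl1, Cntn1 and Tenm3 made up the 11. The intervals cover counting error only. Nlgn1 had 11.7% of its transcripts there and Tenm2 16.7%, nearer to the share of all transcripts.

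Within RPC1, Nrxn3 was at 3558 CPM in the cluster and 53.6 CPM in the other tumor-like nuclei. Adgrb3 was at 764 and 18.8 CPM, Lrrtm4 at 704 and 6.26 CPM, Negr1 at 377 and 6.30 CPM, and Adgrl3 at 181 and 5.42 CPM. Outside the cluster, RPC1 was thus lower in Adgrb3 and Negr1 than any other animal. Tenm2 was low in both places, with 208 and 133 CPM.

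The cluster kept the neuroendocrine markers: their summed level was 4370 CPM in it and 4358 CPM outside, with all 14 detected. The 10 markers of peripheral neurons summed to 139 CPM in the cluster and 58.3 CPM outside, beside 67.4 to 139.5 CPM in the tumor-like nuclei of the 4 animals. Of these 10, 8 were detected in the cluster and 7 were higher in it than outside. Rbfox3 was at 92.8 and 20.2 CPM, Prph at 11.4 and 1.7 CPM, and Th at 24.2 and 30.8 CPM. Dbh, an enzyme of noradrenaline synthesis, was at 0 and 0.043 CPM, near the floor in both places. The 10 markers of Schwann cells and glia summed to 253 and 305 CPM, of which Mbp made up 226 and 278 CPM. Sox10 and Fabp7 were at 0 in the cluster and at 0.043 and 0.300 CPM outside, so their absence says little.

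Without the cluster, the fitted difference was higher in RPC for 12 members and lower for 30, and 7 members turned direction. The median was -0.17, beside -0.01 over all genes. Nrxn3 was then at 159, 130, 52.5 and 159 CPM with a log2 fold change of -0.45, and Lrrtm4 at 10.6, 15.7, 6.13 and 5.85 CPM with -1.14. DESeq2 then called Lrrtm4 lower in RPC (log2 fold change -1.09, adjusted p 0.0456) beside Adgrb2 and Cntnap1 (3.78% of all genes), and edgeR still called no member (adjusted p 0.305 for Lrrtm4). The cluster was chosen from these same nuclei, and Lrrtm4 and Nrxn3 are among its leading genes. Removing it therefore lowers such members in RPC1 by selection. The shift of the members and the call of Lrrtm4 are a description and no independent test. Adgrb2 was at 168, 160, 82.6 and 82.3 CPM, as with the cluster.

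**Figure D3:**
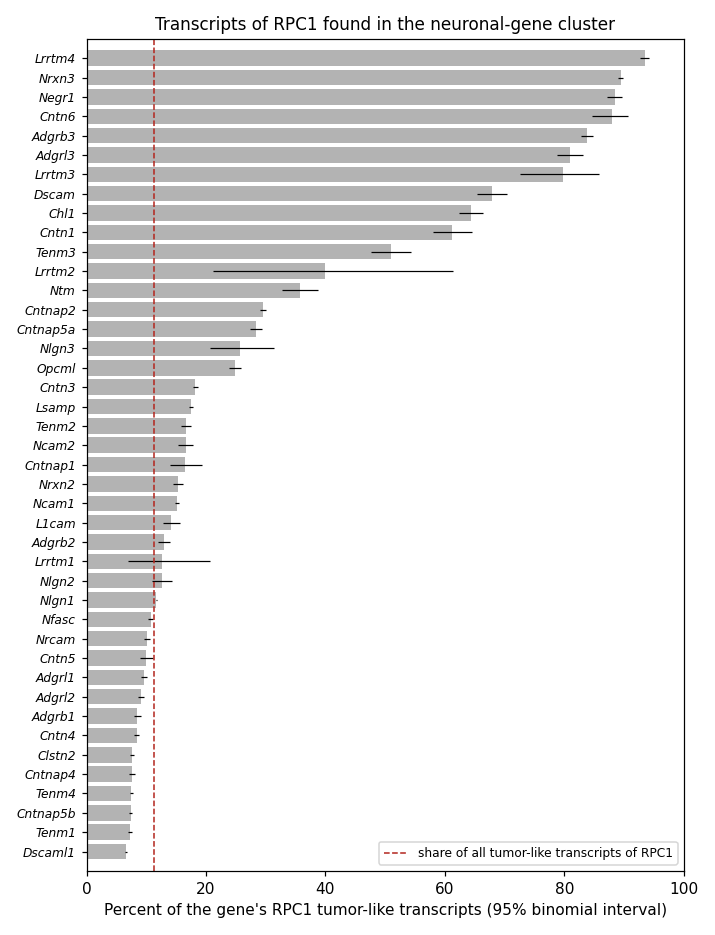
Percent of the RPC1 tumor-like transcripts of each member that lie in the neuronal-gene cluster, with 95% exact binomial intervals. The dashed line marks the 11.33% of all transcripts that the cluster holds. Lrrtm4 at 93.5% and Nrxn3 at 89.5% lie far to the right, and Tenm2 at 16.7% and Nlgn1 at 11.7% lie near the line.

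The other differences between animals ran through most clusters. There were 18 sets of at least 100 nuclei of 1 animal in 1 tumor-like cluster. Tenm2 ran from 2041 to 16621 CPM over the 6 sets of RP1, from 306 to 11729 over the 4 of RP2, from 60.6 to 208 over the 4 of RPC1 and from 731 to 8695 over the 4 of RPC2. Every set of RPC1 was therefore below every set of the other animals, whose own sets overlapped across genotypes. Adgrb3 ran from 760 to 1965 CPM in RP1, 458 to 1812 in RP2 and 221 to 1053 in RPC2, and from 17.8 to 24.2 in RPC1 outside the neuronal-gene cluster.

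Negr1 was at 329 to 850 CPM in all 6 sets of RP1, 7.97 to 163 in RP2 and 18.1 to 27.5 in RPC2. Nlgn1 varied little by comparison, from 2005 CPM in a set of RP1 to 4982 CPM in one of RPC1. Across the 18 sets, Tenm2 and Adgrb3 went together (Pearson r = 0.858, Spearman rho = 0.845 on log2 CPM), and Tenm2 and Nlgn1 went in opposite directions (r = -0.774, rho = -0.692). Of 4 pairs computed, the other two were Tenm2 with Negr1 (r = 0.402, rho = 0.492) and Lrrtm4 with Nrxn3 (r = 0.869, rho = 0.622, and 0.643 and 0.551 without the neuronal-gene cluster). These correlations describe sets that share their animals, wells and libraries, so no p is given.

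**Figure D4:**
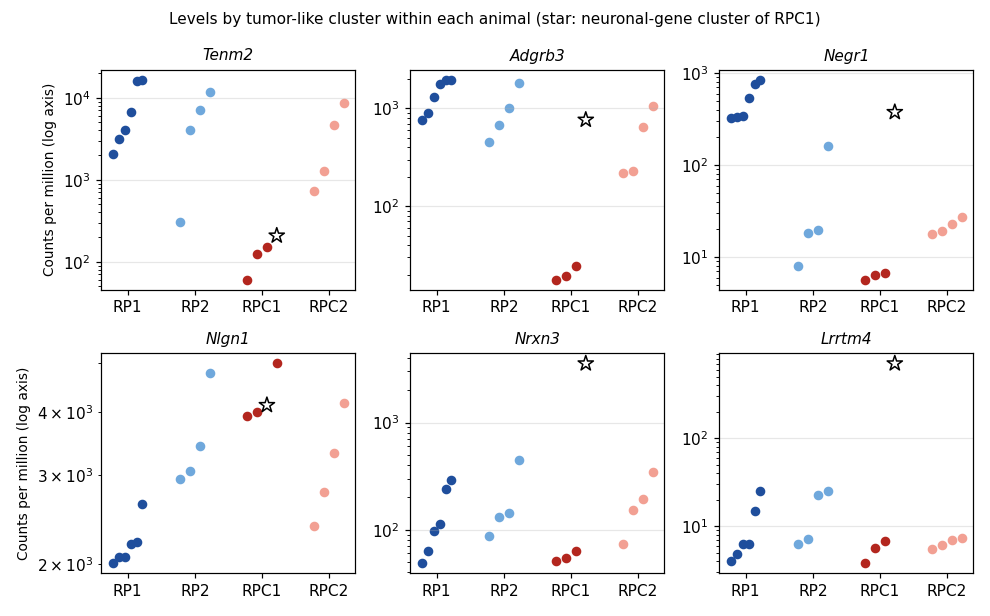
Level of Tenm2, Adgrb3, Negr1, Nlgn1, Nrxn3 and Lrrtm4 (CPM, logarithmic axis) in each tumor-like cluster with at least 100 nuclei, by animal, with the neuronal-gene cluster of RPC1 as a star. Tenm2 stays between 60.6 and 208 CPM in every set of RPC1, and the star is far above the other RPC1 sets for Nrxn3 and Lrrtm4.

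The share of nuclei with a transcript was compared at equal depth. Each nucleus was thinned to 1000 transcripts, and 131 to 778 shallower tumor-like nuclei per animal were left out. Tenm2 was then detected in 83.4 and 66.6% of the tumor-like nuclei of RP1 and RP2, against 9.98 and 60.8% of those of RPC1 and RPC2. Adgrb3 was in 66.3, 43.3, 5.47 and 30.4%, Negr1 in 34.1, 1.71, 2.71 and 1.94%, and Nlgn1 in 78.9, 88.5, 94.0 and 89.9%. Of the 42 members, 10 had both RPC animals lower and 7 both higher (40.5%), beside 46.1% of all tested genes (19.7% lower and 26.4% higher). Without thinning the numbers were 5 lower and 14 higher, beside 6.77 and 54.1% of all genes, and the deeper RPC nuclei cannot be told apart from the genotype there. With 2 animals against 2, the exact permutation test cannot go below a p of 0.33 (two-sided), which these 17 members reached.

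Genes that work with the members were counted from 3 lists. Of 58 other adhesion partners, 54 were tested: edgeR called 0, and 10 had an unadjusted p under 0.05 (3 higher and 7 lower), which is 18.5%, beside 15.2% of all genes. DESeq2 called 1 higher and 1 lower (3.7%, beside 3.94% of all genes), the latter Amigo1. Amigo1, a leucine-rich adhesion protein, was at 13.8 and 15.3 CPM in RP1 and RP2, against 6.53 and 6.80 CPM in RPC1 and RPC2 (log2 fold change -1.13 ± 0.22, edgeR adjusted p 0.267, DESeq2 adjusted p 0.00567). Its genotypes did not overlap.

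Of 34 intracellular scaffolds, which hold the adhesion proteins in place from within, all were tested and edgeR called 0, with 2 higher and 3 lower at an unadjusted p under 0.05 (14.7%). DESeq2 called 1 (2.94%), Magi2, a scaffold that binds neuroligins, at 298, 562, 1010 and 905 CPM (log2 fold change 1.16 ± 0.33, edgeR adjusted p 0.285, DESeq2 adjusted p 0.0433). Gphn, the scaffold of inhibitory synapses, was at 2529, 6982, 2100 and 2133 CPM, so RP2 alone was high. Of 30 secreted organizers of synapses, 24 were tested, no gene was called by either tool, and 1 was higher and 3 were lower at an unadjusted p under 0.05 (16.7%). The shares of all 3 lists are near those of all genes. The median log2 fold change was -0.18 for the adhesion partners, 0.04 for the scaffolds and -0.27 for the organizers, beside -0.01 over all genes.

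In the other cells of the tumors most members were lower than in tumor-like nuclei. Of 324 tests in 8 classes with at least 20 nuclei in every animal, with the animal as a block, edgeR called 218 members lower and 7 higher. Members called lower were 30 of 40 in alveolar type 1-like nuclei (10.6% of all genes tested there), 29 of 41 in alveolar type 2-like (8.25%), 24 of 40 in B cell-like (6.72%) and 30 of 41 in club-like nuclei (8.55%). They were 26 of 41 in endothelial-like (6.93%), 30 of 41 in macrophage or monocyte-like (16.1%), 25 of 40 in smooth muscle or pericyte-like (7.93%) and 24 of 40 in T or NK cell-like nuclei (6.27%). Members called higher were 2 in endothelial-like (9.11% of all genes), 2 in macrophage or monocyte-like (16.5%), 2 in smooth muscle or pericyte-like (9%) and 1 in T or NK cell-like nuclei (5.07%), and 0 in alveolar type 1-like (9.53%), alveolar type 2-like (8.92%), B cell-like (5.67%) and club-like nuclei (10.6%). The members' median log2 fold change lay between -1.1 and -0.46 by class, and that of all genes between -0.19 and -0.06.

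Neuroendocrine markers were also counted in these classes. They reached 35.8 to 87.1% of their tumor-like level in the 8 classes, depending on class and animal. In endothelial-like nuclei they stood at 74.0, 75.7, 77.0 and 85.1% and in macrophage or monocyte-like nuclei at 73.5, 64.2, 61.3 and 73.7%. Class clusters with a median depth over 2 times that of their animals held more of them: without these clusters the ranges were 48.5 to 60.0% in endothelial-like and 12.6 to 31.7% in macrophage or monocyte-like nuclei. A member level below the tumor-like level in these classes cannot be told apart from RNA of tumor nuclei of the same animal.

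In these classes Tenm2 followed the animals. It was detected in 61.9, 67.2, 5.62 and 52.6% of thinned endothelial-like nuclei and in 68.5, 53.7, 3.76 and 48.7% of macrophage or monocyte-like nuclei. Adgrb3 was in 34.5, 30.3, 2.25 and 19.9% of endothelial-like nuclei. The order of the animals was that of the tumor-like nuclei or close to it, with RPC1 lowest in each.

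Adgrl3, a latrophilin, had the opposite distribution. In endothelial-like nuclei it was at 58.8 and 133 CPM in RP1 and RP2, against 191 and 187 CPM in RPC1 and RPC2, beside 6.23, 17.9, 25.3 and 8.998 CPM in tumor-like nuclei of the same fit. All 4 animals were higher, with a log2 fold change of 3.39 ± 0.19 (n = 4 animals, edgeR adjusted p 1.05e-11). Macrophage or monocyte-like nuclei had 127, 114, 194 and 240 CPM (3.63 ± 0.26, edgeR adjusted p 2.81e-08). Smooth muscle or pericyte-like nuclei had 120, 149, 289 and 108 CPM (3.59 ± 0.15, edgeR adjusted p 1.09e-13). Without the deep clusters and the neuronal-gene cluster these 3 log2 fold changes were 5.03, 5.50 and 4.23. The neuronal-gene cluster, chosen from these same nuclei, held 81.0% of the RPC1 tumor-like transcripts of Adgrl3. In the fit between genotypes its removal took RPC1 from 24.5 to 5.31 CPM, so it raises these fold changes by selection. No smooth muscle or pericyte-like nuclei were in deep clusters, so their rise from 3.59 rests on that removal alone.

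In thinned nuclei, Adgrl3 was detected in 4.76, 17.2, 21.4 and 25.0% of endothelial-like and in 0.646, 1.71, 1.85 and 1.05% of tumor-like nuclei. Both kinds of nuclei were thinned to the same depth, from medians of 2708 to 4136 transcripts in the endothelial-like and 2504 to 3390 in the tumor-like nuclei used. The tumor-like share is the lower one in every animal.

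Adgrl2 was the only other latrophilin called higher in a class, at 390, 381, 337 and 186 CPM in endothelial-like nuclei, beside 222, 195, 266 and 129 CPM in tumor-like nuclei. The log2 fold change was 0.66 ± 0.10 (edgeR adjusted p 3.88e-05), and all 4 animals were higher. Tenm3 rose in smooth muscle or pericyte-like nuclei to 100.1, 31.6, 16.1 and 45.8 CPM, by a log2 fold change of 1.01 ± 0.22 (edgeR adjusted p 0.00198), although in RPC1 the class and the tumor-like nuclei were at the same level. Without RP1 that call was lost (0.68, adjusted p 0.0724).

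Dscam, an adhesion protein of neurite self-avoidance, was at 15.7, 93.03, 63.5 and 19.3 CPM in T or NK cell-like nuclei, beside 5.21, 24.1, 25.99 and 14.0 CPM in tumor-like nuclei. The log2 fold change was 1.45 ± 0.35 (edgeR adjusted p 6.49e-04), and without RP2 the call was lost (1.20, adjusted p 0.0890). It rests on 3 to 15 transcripts per animal. In macrophage or monocyte-like nuclei Dscam was higher in 3 of 4 animals (1.16 ± 0.23, edgeR adjusted p 0.00116).

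**Figure D5:**
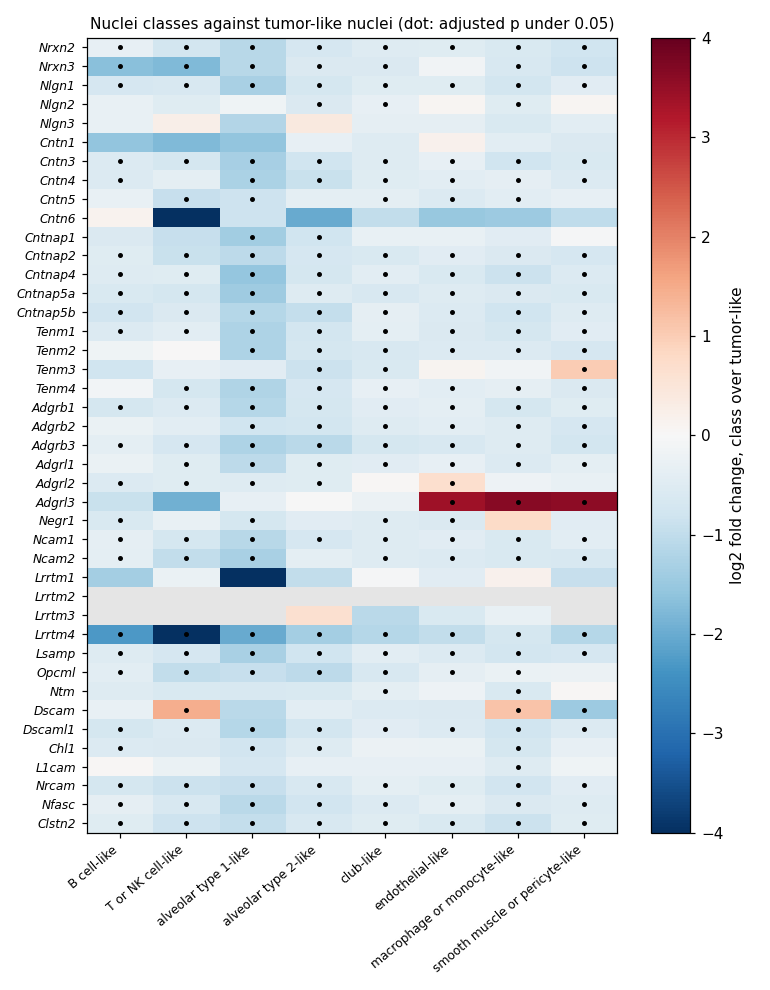
Log2 fold change of each member in 8 classes against tumor-like nuclei of the same animals (edgeR with animal as a block, color range cut at 4 in both directions). Dots mark an adjusted p under 0.05, and grey cells were not tested. Adgrl3 is higher in the endothelial-like, macrophage or monocyte-like and smooth muscle or pericyte-like columns, while most other marked cells are lower.

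Within these 8 classes, edgeR called 0 of 263 member tests between the genotypes, and DESeq2 called 3, beside 0.42% of all its tests in the 8 classes. Of all genes edgeR called 0% in alveolar type 1-like, 0.0833% in alveolar type 2-like, 0.128% in B cell-like, 0.0158% in club-like, 0.0416% in endothelial-like, 0.00847% in macrophage or monocyte-like, 0.0562% in smooth muscle or pericyte-like and 0% in T or NK cell-like nuclei. At an unadjusted p under 0.05 edgeR had 47 of the 263 member tests (17.9%), beside 11.1% of the tests of all genes. DESeq2 called Cntnap2 higher in alveolar type 2-like nuclei (log2 fold change 1.499, DESeq2 adjusted p 0.0498) and Negr1 lower in alveolar type 2-like (-2.71, DESeq2 adjusted p 0.0283) and B cell-like nuclei (-3.76, DESeq2 adjusted p 0.00167). In tumor-like nuclei Cntnap2 was at 256, 491, 498 and 925 CPM, so both RPC animals were higher there too. Neuroendocrine markers stood at 59.8 to 79.9% of their tumor-like level in alveolar type 2-like nuclei. The part of tumor RNA in the call of Cntnap2 was not tested. Negr1 was at 240, 45.3, 20.1 and 20.5 CPM in alveolar type 2-like and at 362, 44.4, 19.3 and 13.6 CPM in B cell-like nuclei (without TMM scaling), so RP1 was high in both, as in its tumor-like nuclei. The genotype effect itself differed between tumor-like and endothelial-like nuclei for 0 of 41 members, beside 0.37% of 18645 genes (edgeR interaction term), with Adgrl2 and Adgrl3 at an unadjusted p under 0.05. Without RPC1, the interaction of Adgrl3 passed, with a larger genotype difference in endothelial-like nuclei by 1.37 on the log2 scale (edgeR adjusted p 0.00435), and without RPC2 it was -0.14.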

How the data were processed

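Nuclei of 4 animals were sequenced in 7 pooled libraries. Alignment to GRCm39 and the assignment of nuclei to animals were done by the authors with the Parse pipeline. Their deposited files give raw counts of unique transcripts for each gene in each nucleus, without normalization.

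Kept were the 38254 nuclei with at least 300 counts, at most 10% mitochondrial counts and at most 12000 genes, the limits of the study. Leiden clustering (Python 3.11.15, leidenalg 0.10.2, igraph 0.11.9, scikit-learn 1.9.0) used 2000 variable genes without the members, 20 components, 20 neighbors, a resolution of 0.4 (1 when candidate non-tumor clusters were split again) and seed 1. Clusters were named from marker lists, so the "-like" names are reconstructions that may differ from those of the study. One cluster of 409 to 554 nuclei per animal stayed unnamed. Doublets were not called. Class clusters deeper than 2 times their animals were left out as an alternative, together with the neuronal-gene cluster of the tumor-like nuclei.

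Counts were summed per animal and tested by quasi-likelihood in edgeR 4.0.16 (R 4.3.3, limma 3.58.1, TMM scaling, filterByExpr, two-sided, Benjamini-Hochberg over all genes tested, adjusted p under 0.05). DESeq2 1.42.0, the tool of the study, was an alternative. CPM of tumor-like nuclei are TMM-scaled, and those of single clusters and sublibraries are not. The numbers of the animals are only names: over genes, RP1 minus RP2 and RPC1 minus RPC2 had a correlation of -0.05. The scripts were tested on simulated data.

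The members and all lists were chosen with earlier results of these data known. Values in every animal are given for members called by edgeR or DESeq2 between genotypes, the 10 highest per kb, those with separate genotypes and a log2 fold change of at least 1 with 5 CPM, those with a highest animal 4 times the second with 5 CPM, and those higher in a class in every animal. Other members named with values (Nrxn2, Clstn2, Cntnap2, Tenm1, Tenm4, and the pathway gene Gphn) and the 3 promoters were chosen after their values were seen. Promoters came from a RefSeq table of GRCm38.p6, which held 33 of the 42 members. Some marker and pathway genes are not reported here.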

Additional observations from a re-analysis of the deposited data

How the results depend on the processing

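edgeR called 0 members in tumor-like nuclei under every alternative run: each animal left out in turn, DESeq2 size factors, no filter on low counts, the other 3 clusterings, no very deep nuclei, all kept nuclei, and odd or even sublibraries alone. DESeq2 called 2, and without the neuronal-gene cluster 3, where the added member was Lrrtm4, a leading gene of that cluster. In the other classes the number called (0 of 263, beside 0.0427% of all genes) was 3 by DESeq2 and 51 of 329 with no filter on low counts (15.5%, beside 1.12%). With an animal left out it was 1 without RP1 (0.362%, beside 0.113%), 12 without RP2 (4.32%, beside 0.329%), 33 without RPC1 (12%, beside 1.99%) and 35 without RPC2 (12.7%, beside 1.55%), where the lone animal of a genotype is assumed to vary like the others. The calls over all genes thus rose under the same settings. The interaction gave 0 to 1 members with an animal left out, the 1 without RPC1 (0.364% of all genes). The members whose shares of nuclei did not overlap numbered 17 of 42. They numbered 28 or 30 with RP1 or RP2 left out, beside 71.6 or 73.3% of all genes, and 32 or 28 with RPC1 or RPC2 left out, beside 71.5 or 75.3%, since fewer values are left to separate. Without thinning 5 were lower and 14 higher. These depths differ between the genotypes. The replicate block left 0 members called and changed no other call in tumor-like nuclei. At an unadjusted p under 0.05 it had 9 members in place of 5 (12.5% of all genes in place of 15.2%).

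Of the 42 members, 21 turned the direction of their fitted difference in tumor-like nuclei under at least 1 alternative. They were 7 without the neuronal-gene cluster (9 by DESeq2), 6, 4, 8 and 9 without RP1, RP2, RPC1 and RPC2, and 0 to 3 under each of the others. Of the 9 members named for their genotype difference or a single high animal, 4 were among them. Without the neuronal-gene cluster, Cntn6 was at -0.15 (DESeq2 -0.11), Lrrtm4 at -1.14 (DESeq2 -1.09) and Nrxn3 at -0.45 (DESeq2 -0.42). With an animal left out, Lrrtm4 ran from -1.07 (without RPC1) to 2.66, and Negr1 from -3.91 to 0.68 (without RP1). The other 5 of these 9 (Adgrb2, Adgrb3, Cntnap1, Nlgn2 and Tenm2) kept their direction under every alternative run. The set without the cluster, the deep clusters and the shares with an animal left out were added once the data were known.

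With 2 animals per genotype, Tenm2, Negr1 and Lrrtm4 differ several-fold within a genotype. Lrrtm1, Lrrtm2 and Lrrtm3 are limited by counts, and levels in other classes by the neuroendocrine RNA counted there.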

Other observations

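Fibroblast-like nuclei had too few nuclei in RP1 for a test, but their Adgrl3 level was the highest of the named classes in all 4 animals. It was at 580 and 398 CPM in the RP animals (RP1, RP2) and 569 and 288 CPM in the RPC animals (RPC1, RPC2), from 51, 157, 143 and 190 transcripts. Negr1 in fibroblast-like nuclei was at 296, 101.5, 31.8 and 24.2 CPM, with RP1 high as in its tumor-like nuclei. All fibroblast-like nuclei lay in a deep cluster. Neuroendocrine markers stood there at 46.2, 61.6, 43.8 and 67.5% of their tumor-like level. The part of tumor RNA in these Negr1 levels was not tested.

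The deep clusters were also left out of macrophage or monocyte-like nuclei, together with the neuronal-gene cluster of the tumor-like nuclei. edgeR then called Negr1 higher in the class than in tumor-like nuclei (log2 fold change 1.63, adjusted p 2.72e-04). The neuronal-gene cluster held 88.4% of the RPC1 tumor-like transcripts of Negr1, and without it RPC1 fell from 46.9 to 6.17 CPM. Which of these removals the call rests on was not tested. With all clusters of both, Negr1 was at 647, 89.0, 28.8 and 60.1 CPM in the class, beside 524, 21.3, 48.3 and 22.6 CPM in tumor-like nuclei. It was then not called by edgeR (0.75, adjusted p 0.0543).

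Of the 112 genes tested from the 3 lists of partners, organizers and scaffolds, both RPC animals were higher than both RP animals for 11 and lower for 26, which is 33%, beside 50.4% of all genes. From those that neither tool called, 3 were chosen as examples after their values were seen. Astn2, an astrotactin of neuronal migration, was at 367 and 556 CPM in RP1 and RP2, against 114 and 243 CPM in RPC1 and RPC2. Nptx2, a secreted pentraxin that clusters glutamate receptors, was at 15.2, 15.1, 3.19 and 8.57 CPM. Shank3, a scaffold of excitatory synapses, was at 6.78, 10.7, 19.0 and 13.5 CPM.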
